A study of Mus musculus with 30 samples.

Results

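Metallothioneins and zinc handling were described through 8 genes, taken by symbol from the 54532 genes of the count table: the metallothioneins Mt1 and Mt2, the metal-sensing transcription factor Mtf1, the zinc exporters Slc30a1 and Slc30a5, and the zinc importers Slc39a1, Slc39a10 and Slc39a14. They were chosen by symbol, with no measured value or threshold in the rule, but with earlier results of these counts in all comparisons known, so their calls are a description and not independent evidence. RNA was sequenced from bone marrow-derived dendritic cells of mice deficient in Nlrx1, a NOD-like receptor found at mitochondria (KO), and of wild-type mice (WT). All cells were grown from marrow for 6 days with GM-CSF, a cytokine that drives myeloid precursors towards dendritic and macrophage-like cells. Both genotypes were sampled unchallenged (0 h) and at 3, 6, 9 and 12 h of exposure to live spores (conidia) of the mould Aspergillus fumigatus strain AF29, in 10 groups of 3 libraries. The design compares later times with 0 h in each genotype, and KO with WT at each time. Later libraries all came from challenged cells, so time in culture and the fungus cannot be told apart. The labels give no strain, sex or age of the mice and leave unstated if libraries sharing a group stem from different mice or wells. The p-values therefore measure only the spread between these libraries, which may be technical.

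Zinc inside a cell is bound mainly by proteins, and the small cysteine-rich metallothioneins hold much of the exchangeable pool, together with copper. MTF1 senses free zinc through its zinc fingers, moves to metal response elements in promoters and turns on metallothionein genes and the exporter gene Slc30a1. Transporters of the SLC30 (ZnT) family lower cytosolic zinc by moving it out of the cell or into organelles, and those of the SLC39 (ZIP) family raise it. In myeloid cells that meet a fungus, binding or removing zinc is one known form of nutritional immunity, and metallothioneins also respond to oxidants, glucocorticoids and inflammatory cytokines.

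Nlrx1 itself had 0 to 5.68 CPM (counts scaled to library size) in the 15 KO libraries, against 5.26 CPM or more in the 15 WT libraries, and was lower in KO over all times (log2 change -1.87, adjusted p = 1.71e-05). 1 WT library lay below the highest KO library. Which exons were deleted is not stated, so remaining KO reads say nothing of a functional transcript. Total counts per library ran from 1722384 to 3509429. All 8 genes passed the filter on low counts with more than 10 counts in every library. Summed dendritic cell markers were at 3288 to 3704 CPM in KO and 2614 to 3687 CPM in WT, while B cell, T and NK cell and erythroid markers summed to at most 9.29 CPM in any library. Summed mast cell and basophil markers over 6 genes were at 10.9 to 28.9 CPM in KO and 22.5 to 44.1 CPM in WT, and at 0 h the genotypes did not overlap, at 23.8 to 28.03 CPM in KO and 39.4 to 44.1 CPM in WT. Itgax and Cd74 of the dendritic cell list were in every library, and the macrophage genes Adgre1 and Csf1r were as well. The dendritic cell genes Flt3 and Dpp4 were at 0 in 17 and 7 libraries. Summed neutrophil markers were lower in KO, at 205 to 579 CPM over 11 genes against 402 to 1025 CPM in WT. Of that list, S100a8, S100a9, Ngp, Ltf, Lcn2 and Cxcr2 had counts in every library. Camp, Elane, Mpo, Retnlg and Ly6g were at 0 in 10, 21, 17, 22 and 14 libraries. Summed macrophage markers over 10 genes were also lower in KO, at 2030 to 2615 CPM against 2507 to 3504 CPM in WT. Small RNA genes (the annotation classes snoRNA, snRNA, scaRNA, miRNA and misc_RNA) took 3.07 to 4.28% of counts in KO and 3.82 to 6.80% in WT. The WT libraries at 12 h, at 3.82 to 4.01%, stood below all other WT libraries. The part of these differences in the results below was not tested. In bulk RNA, fewer cells of a type and less RNA per cell cannot be told apart.

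The start regions of Mt1, Mt2 and Slc30a1 are shown because these are the 3 genes that passed the test of change from 0 h. Mt1 (ENSMUSG00000031765, chromosome 8, 94179082 to 94180327, forward strand, GRCm38) and Mt2 (ENSMUSG00000031762, chromosome 8, 94172664 to 94173568, forward strand) lie next to each other. Slc30a1 lies on chromosome 1 (191906767 to 191913247, forward strand). The windows are those of RefSeq on GRCm38.p6, running from 250 bases before to 50 bases after the listed start, at chr8:94178839-94179138 for Mt1, chr8:94172368-94172667 for Mt2 and chr1:191906531-191906830 for Slc30a1. Capitals mark each match to the core of the metal response element, searched on both strands as TGCACNC or TGCGCNC.
Mt1: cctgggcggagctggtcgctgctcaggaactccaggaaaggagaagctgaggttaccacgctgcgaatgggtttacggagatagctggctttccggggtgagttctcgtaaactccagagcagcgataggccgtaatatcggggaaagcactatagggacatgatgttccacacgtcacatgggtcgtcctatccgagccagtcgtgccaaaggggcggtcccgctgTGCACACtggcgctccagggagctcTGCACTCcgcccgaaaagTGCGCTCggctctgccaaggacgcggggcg
Mt2: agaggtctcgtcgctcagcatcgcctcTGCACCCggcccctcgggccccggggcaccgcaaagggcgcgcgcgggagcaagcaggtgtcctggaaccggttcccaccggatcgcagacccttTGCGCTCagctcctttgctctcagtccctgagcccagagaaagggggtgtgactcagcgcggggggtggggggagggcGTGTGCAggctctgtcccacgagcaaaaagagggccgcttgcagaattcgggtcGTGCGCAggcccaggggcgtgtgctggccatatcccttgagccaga
Slc30a1: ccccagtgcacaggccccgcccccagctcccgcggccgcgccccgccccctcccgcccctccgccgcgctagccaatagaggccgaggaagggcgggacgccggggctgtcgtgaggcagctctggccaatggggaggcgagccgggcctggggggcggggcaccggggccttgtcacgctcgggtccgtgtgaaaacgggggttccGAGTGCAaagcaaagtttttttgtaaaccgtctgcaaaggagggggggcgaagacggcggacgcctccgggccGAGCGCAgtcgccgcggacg
The Mt1 window held 3 matches, the Mt2 window 4 and the Slc30a1 window 2, and no match overlapped another. Relative to the listed start, they began at -23, 2 and 20 for Mt1 and at -223, -128, -50 and 4 for Mt2. For Slc30a1 they began at -43 and 30, so each window held matches after the listed start as well as before it. Among all 32851 RefSeq windows of this length, at least 1 match was found in 25.7%, at least 2 in 7.11%, at least 3 in 1.97% and at least 4 in 0.517%. RefSeq windows were found for 7 of the 8 genes: Slc30a5 held 1 match, and Mtf1, Slc39a1 and Slc39a10 held none. A match is a description of letters and not a bound site.

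Per kilobase of merged exons, Mt1 had the highest level of the 8 genes, with a mean of 146 ± 34.2 CPM per kb over all libraries (SD, n = 30). Mt2 followed with 64.4 ± 31.0 CPM per kb and Slc39a1, a zinc importer of the plasma membrane, with 42.6 ± 3.70 CPM per kb. The other transporters and Mtf1 were far lower, at 6.16 ± 1.06 for Slc30a1, 4.81 ± 0.672 for Slc30a5, 4.11 ± 0.857 for Slc39a10, 3.72 ± 0.573 for Mtf1 and 2.93 ± 0.371 CPM per kb for Slc39a14. In that order the means of Mt2 and Slc39a1, of Slc30a5 and Slc39a10, and of Slc39a10 and Mtf1 lay within the larger SD of the pair, and the other neighbours lay further apart than either SD. The wide SDs of Mt1 and Mt2 include their differences between times and genotypes. The merged exons of Mt1 cover 1246 bases, its whole listed span, so intronic bases of some transcripts count in its length. Those of Mt2 cover 588 bases, less than its span. The gap between Mt1 and Mt2 therefore depends on these lengths, and in CPM without length their means were 182 and 37.9.

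Mt1, the most abundant of the metallothioneins here, had risen at 9 and 12 h in KO and at 12 h in WT. In KO it had 146, 156 and 165 CPM at 0 h, 199, 179 and 187 CPM at 3 h, 175, 179 and 174 CPM at 6 h, 222, 216 and 223 CPM at 9 h, and 269, 280 and 292 CPM at 12 h. Every KO library from 3 h on lay above every KO library at 0 h, and all 3 libraries at 12 h lay above all at 9 h. In WT it had 173, 142 and 158 CPM at 0 h, 148, 149 and 149 CPM at 3 h, 144, 170 and 154 CPM at 6 h, 145, 138 and 127 CPM at 9 h, and 222, 184 and 194 CPM at 12 h. The WT libraries overlapped those at 0 h until 9 h, where 2 of 3 were below the lowest at 0 h, and those at 12 h stood above all others. Against 0 h, the log2 change of Mt1 in KO was 0.50 ± 0.07 at 9 h (SE derived from the test statistic, edgeR quasi-likelihood test, adjusted p = 1.85e-05) and 0.85 ± 0.07 at 12 h (adjusted p = 1.39e-09), a 1.80-fold higher level at 12 h. The KO changes of 0.27 at 3 h and 0.18 at 6 h did not pass (adjusted p = 0.0701 and 0.185). In WT the change was 0.34 ± 0.07 at 12 h (adjusted p = 0.00114), or 1.27-fold. At 9 h in WT the change was -0.21 ± 0.07 and did not pass (adjusted p = 0.0738), but it did with WT 0 h replicate 2 left out (adjusted p = 0.0257), and likewise WT 9 h replicate 1 (0.0497).

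Mt2, which encodes the second widely expressed metallothionein, changed mainly between 9 and 12 h. In KO it had 29.0, 33.4 and 42.0 CPM at 0 h, 44.0, 38.1 and 46.7 CPM at 3 h, 34.6, 36.0 and 36.8 CPM at 6 h, 46.9, 50.3 and 46.7 CPM at 9 h, and 80.2, 77.8 and 74.3 CPM at 12 h. In WT it had 19.4, 27.7 and 19.9 CPM at 0 h, 20.6, 22.2 and 19.3 CPM at 3 h, 19.9, 24.5 and 20.3 CPM at 6 h, 19.4, 18.2 and 23.4 CPM at 9 h, and 60.6, 50.8 and 53.6 CPM at 12 h. The WT libraries of 0 to 9 h lay in 1 band, and the 12 h libraries of both genotypes were far above their own earlier libraries. Against 0 h, the log2 change at 12 h was 1.15 ± 0.13 in KO (2.22-fold, adjusted p = 1.11e-07) and 1.31 ± 0.13 in WT (2.47-fold, adjusted p = 2.99e-08). In KO the change at 9 h was 0.46 ± 0.13 (adjusted p = 0.0194). That call ended without KO 0 h replicate 1 (adjusted p = 0.118), KO 0 h replicate 2 (0.0784) or KO 9 h replicate 2 (0.0737), and it did not pass with no count filter (0.0790) or when only the libraries compared were fitted (0.0923). The exons of Mt2 share 432 bases with the antisense gene Gm45774, which had 0 to 10 counts per library. The library kit keeps strand, but the strand setting of the counting is not given, so reads of the pair may not be separated. Transcripts of Mt1 and Mt2 share no identical run longer than 20 bases.

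**Figure D1:**
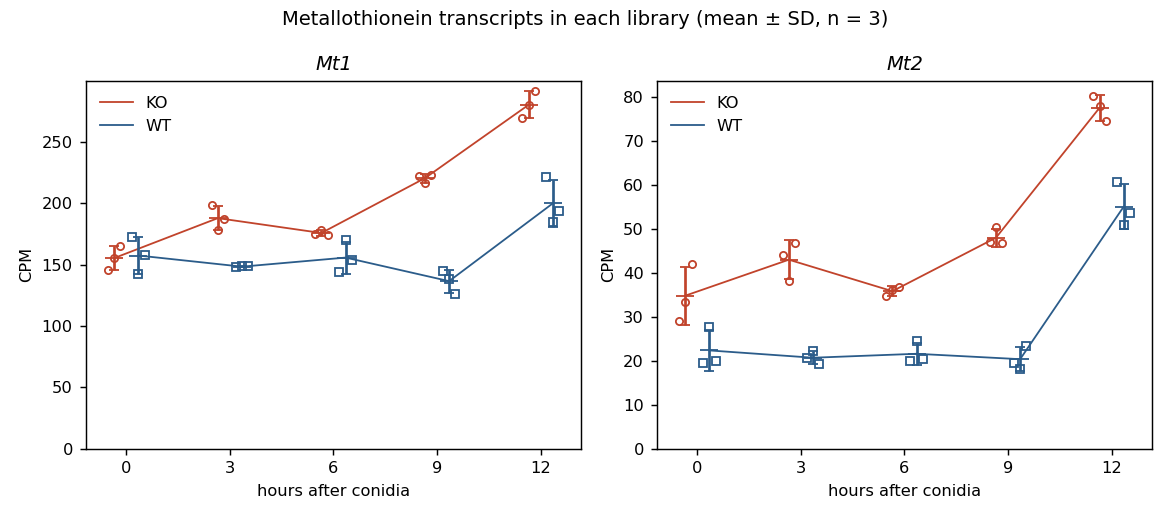
Mt1 (left) and Mt2 (right) in CPM against hours after conidia, with each library as an open symbol (KO circles, WT squares), horizontal marks for group means and bars for SD (n = 3). KO means at 12 h are 280 CPM for Mt1 and 77.5 CPM for Mt2, against WT means of 199.95 and 55.0 CPM, and the Mt2 symbols of the genotypes do not overlap at any time.

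Over all 12393 genes tested, 10.9% were called at 9 h and 14.7% at 12 h against 0 h in KO, and 10.4% at 9 h and 18.1% at 12 h in WT. Of the 8 genes, 3 were called at 9 h (Mt1, Mt2 and Slc30a1) and 2 at 12 h (Mt1 and Mt2) in KO, all higher. In WT, 1 was called at 9 h (Slc30a1) and 2 at 12 h (Mt1 and Mt2), all higher. None was called at 3 or 6 h, when 1.22% and 5.91% of all genes were called in KO and 1.02% and 5.96% in WT. The unadjusted p was under 0.05 for 2 of the 8 at 3 h and 5 at 6 h in KO. In WT this held for 1 at 3 h and 1 at 6 h. The share of all genes under that unadjusted threshold was not counted, so these counts cannot be called many or few. Those at 6 h in KO went both ways, with Mt1, Slc30a1 and Slc39a10 higher and Slc39a1 and Slc39a14 lower. DESeq2 called 0 of the 8 at 3 or 6 h in either genotype. The median log2 change of the 8 genes at 12 h was -0.17 in KO and -0.04 in WT, against -0.01 and 0.00 over all genes. The later times share their 0 h libraries.

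**Figure D2:**
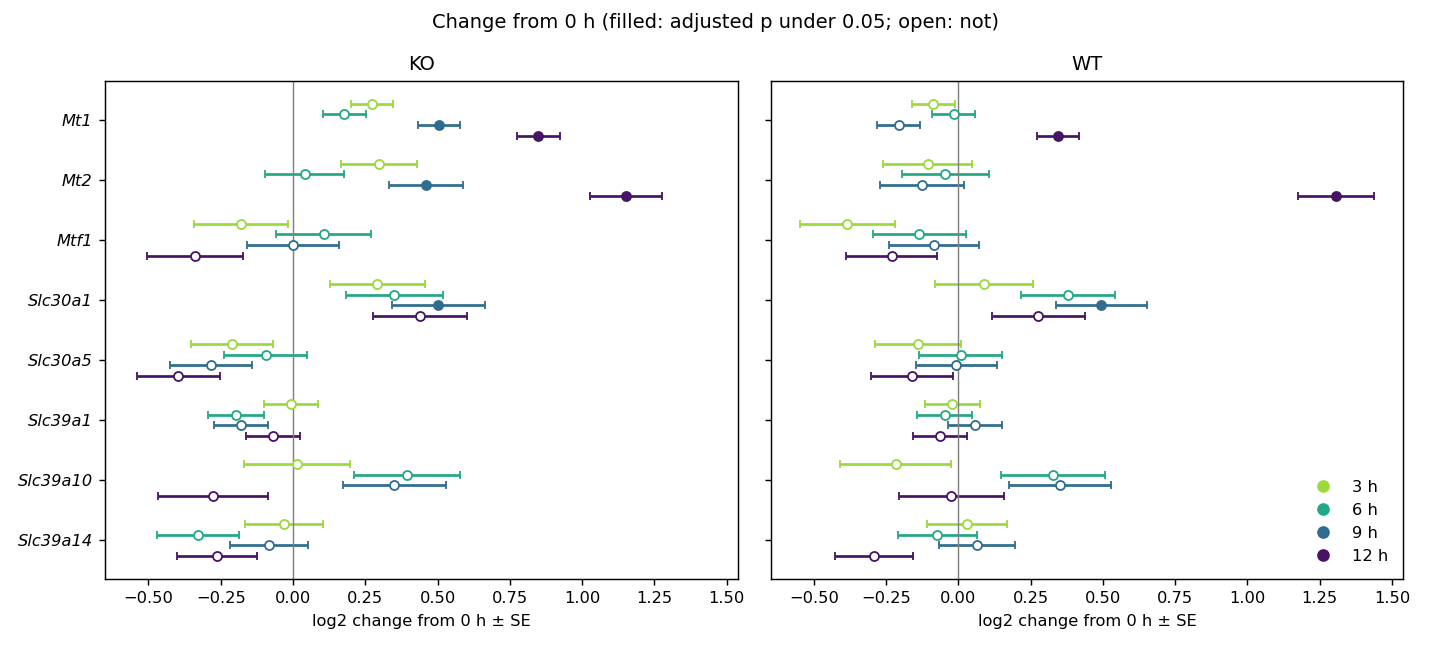
Log2 change from 0 h with its SE for each gene at 3, 6, 9 and 12 h, in KO (left) and WT (right). Filled points have an adjusted p under 0.05 and open points do not, and the filled points are those of Mt1, Mt2 and Slc30a1.

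The step between the last 2 times was tested on its own. From 9 to 12 h, 2 genes were called in WT, Mt1 and Mt2, beside 10.5% of all genes. In KO, 3 were called, Mt1 and Mt2 higher and Slc39a10 lower, beside 4.49%. Mt2 at 12 h exceeded 9 h by 0.69 ± 0.12 in KO (adjusted p = 0.000395) and by 1.43 ± 0.13 in WT (adjusted p = 7.6e-09) on the log2 scale. Mt1 exceeded it by 0.35 ± 0.07 in KO (adjusted p = 0.00307) and by 0.55 ± 0.07 in WT (adjusted p = 5.11e-06). With no count filter the Mt1 step in KO did not pass (adjusted p = 0.0657). The step of Mt2 was smaller in KO than in WT by 0.74 on the log2 scale, a difference that did not pass over all genes (adjusted p = 0.0844), where 0.218% of genes passed.

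Since Mt1 and Mt2 are counted in the same library, their ratio does not depend on library scaling. Mt2 counts came to 19.9, 21.4 and 25.4% of Mt1 counts in the KO libraries at 0 h and to 29.8, 27.8 and 25.5% at 12 h. In WT they came to 11.2, 19.5 and 12.6% at 0 h and to 27.3, 27.5 and 27.7% at 12 h. The group means in KO were 22.3, 22.8, 20.4, 21.7 and 27.7% at 0, 3, 6, 9 and 12 h, and in WT 14.4, 13.9, 13.8, 15.02 and 27.5%. At 0, 3, 6 and 9 h every KO library had a higher ratio than every WT library of its time, and at 12 h the genotypes overlapped. The WT libraries at 12 h also had the lowest share of small RNA genes in WT, at 3.82 to 4.01% of counts. The part of that difference in the ratio was not tested.

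**Figure D3:**
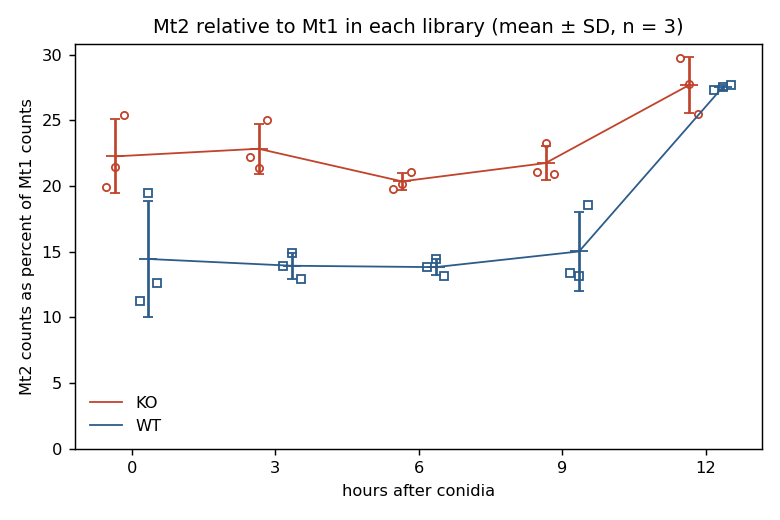
Mt2 counts as a percent of Mt1 counts in each library (KO circles, WT squares) against hours after conidia, with mean marks and SD bars (n = 3). KO lies between 19.8 and 25.4% until 9 h and WT between 11.2 and 19.5%, and both lie between 25.5 and 29.8% at 12 h.

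KO cells held more of both metallothionein transcripts than WT cells, Mt2 at every time and Mt1 at 3, 9 and 12 h. Of the 8 genes, 1 was called at 0 h (Mt2), beside 5.02% of all genes, and 2 at 3 h (Mt1 and Mt2), beside 6.92%. At 6 h 1 was called (Mt2), beside 5.78%, and 2 at both 9 h and 12 h (Mt1 and Mt2), beside 5.06% and 1.9%. All of these were higher in KO. For Mt2 the log2 change of KO over WT was 0.65 ± 0.14 at 0 h (adjusted p = 0.00464), 1.05 ± 0.14 at 3 h (1.17e-05), 0.73 ± 0.14 at 6 h (0.00177), 1.23 ± 0.13 at 9 h (3.85e-07) and 0.49 ± 0.12 at 12 h (0.0211). No KO library overlapped a WT library of its time. The Mt2 call at 0 h ended without KO 0 h replicate 3 (log2 change 0.49, adjusted p = 0.0673) and when only the libraries compared were fitted (0.126). The Mt2 call at 12 h was lost when 1 of 4 libraries was left out, WT 12 h replicate 2 (adjusted p = 0.141), WT 12 h replicate 3 (0.0917), KO 12 h replicate 1 (0.0893) or KO 12 h replicate 2 (0.0768). It was also lost with no count filter (adjusted p = 0.215) and when only the libraries compared were fitted (0.0754).

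For Mt1 the KO and WT libraries overlapped at 0 h, with a log2 change of -0.02 and a 95% interval of -0.16 to 0.13 (1.96 SE either side, adjusted p = 0.941). At 3 h it was 0.34 ± 0.07 (adjusted p = 0.00381), which did not pass with no count filter (adjusted p = 0.0752). At 6 h it was 0.17 ± 0.07 and did not pass (adjusted p = 0.193), although all 3 KO libraries lay above the WT libraries. At 9 h it was 0.69 ± 0.07 (1.61-fold, adjusted p = 2.56e-07) and at 12 h 0.49 ± 0.07 (1.40-fold, adjusted p = 0.00013). Averaged over the 5 times, KO exceeded WT by 0.33 ± 0.03 for Mt1 (1.26-fold, adjusted p = 1.07e-08) and by 0.83 ± 0.06 for Mt2 (1.78-fold, adjusted p = 3.72e-11). These were the 2 of the 8 genes called in that comparison, beside 24.9% of all genes. Their calls held without any 1 of the 30 libraries, with adjusted p of at most 6.11e-08 for Mt1 and 2.11e-10 for Mt2. The summed neutrophil and macrophage markers were lower in KO at each time, also at 0 h, and their part in these differences was not tested.

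**Figure D4:**
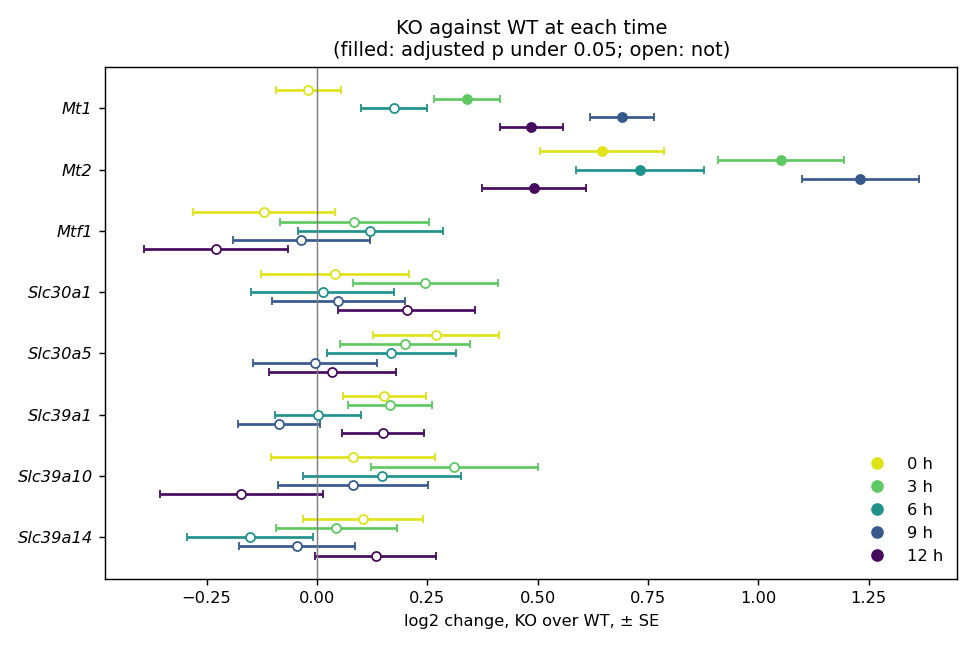
Log2 change of KO over WT with its SE for each gene at 0, 3, 6, 9 and 12 h. Filled points have an adjusted p under 0.05 and open points do not: Mt2 is filled at each time, from 0.49 to 1.23, Mt1 at 3, 9 and 12 h, and no point of the other genes is filled.

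The change of Mt1 over time differed between genotypes. In the F test of genotype by time Mt1 was the 1 gene of the 8 called (adjusted p = 0.00216), beside 0.888% of all genes. Its change from 0 h was larger in KO than in WT by 0.71 ± 0.10 at 9 h (adjusted p = 0.00172, beside 0.105% of all genes) and by 0.51 ± 0.10 at 12 h (adjusted p = 0.0162, beside 0.726%). The difference at 12 h did not pass with WT 0 h replicate 1 left out (log2 0.43, adjusted p = 0.0588), nor with WT 12 h replicate 2 left out (log2 0.45, adjusted p = 0.0675). It also failed with no count filter (adjusted p = 0.173) and when only the libraries compared were fitted (0.111). Mt2 did not pass the F test (adjusted p = 0.114), with a difference of 0.58 ± 0.19 at 9 h (adjusted p = 0.466) and -0.15 ± 0.18 at 12 h (adjusted p = 0.843). For the other 6 genes the adjusted p of the F test lay between 0.718 and 0.965.

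Mtf1, the transcription factor that senses zinc for the metallothionein genes, passed in no comparison. It ran from 25.0 to 43.4 CPM with a median of 31.5 CPM in KO, and from 21.3 to 41.5 CPM with a median of 33.6 CPM in WT. At 12 h it had 28.8, 25.8 and 27.4 CPM in KO and 31.3, 31.9 and 32.8 CPM in WT. In both genotypes these libraries lay below those at 0 h, which had 36.5, 31.5 and 35.8 CPM in KO and 37.4, 33.6 and 41.5 CPM in WT. The log2 change at 12 h was -0.34 ± 0.17 in KO (adjusted p = 0.197) and -0.23 ± 0.16 in WT (adjusted p = 0.348), while Mt1 and Mt2 were higher. Over all times KO and WT differed by -0.04 ± 0.07 (adjusted p = 0.770). Its exons share 721 bases with 1110065P20Rik on the other strand, which had 2 to 23 counts per library.

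Slc30a1, the plasma membrane exporter that MTF1 is known to turn on, was higher at 9 h in both genotypes. In KO it had 23.5, 25.5 and 30.9 CPM at 0 h, 34.2, 34.9 and 28.7 CPM at 3 h, 40.4, 28.9 and 33.4 CPM at 6 h, 36.9, 41.6 and 34.7 CPM at 9 h, and 38.4, 30.9 and 40.1 CPM at 12 h. In WT it had 23.3, 31.0 and 23.6 CPM at 0 h, 25.1, 30.8 and 27.2 CPM at 3 h, 29.7, 41.6 and 30.0 CPM at 6 h, 30.8, 39.3 and 39.4 CPM at 9 h, and 33.2, 33.1 and 27.4 CPM at 12 h. The KO libraries at 9 h did not overlap those at 0 h, and 1 of the 3 WT libraries did. The log2 change at 9 h was 0.50 ± 0.16 in KO (adjusted p = 0.0421) and 0.49 ± 0.16 in WT (adjusted p = 0.0432). Both calls were close to the threshold and did not pass with DESeq2 (adjusted p = 0.0623 in KO and 0.0737 in WT), with no count filter (0.133 in KO and 0.0634 in WT) or when only the libraries compared were fitted (0.0757 in KO and 0.0930 in WT). The KO call ended without KO 0 h replicate 1 (adjusted p = 0.155), KO 0 h replicate 2 (0.134), KO 9 h replicate 1 (0.0762) or KO 9 h replicate 2 (0.168). The WT call did not pass without WT 0 h replicate 1 (adjusted p = 0.180), WT 0 h replicate 3 (0.157), WT 9 h replicate 2 (0.143) or WT 9 h replicate 3 (0.161).

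At 12 h Slc30a1 was at a log2 change of 0.44 ± 0.16 in KO (adjusted p = 0.0714) and 0.28 ± 0.16 in WT (adjusted p = 0.258). The KO change passed without KO 0 h replicate 3 (adjusted p = 0.0483) or KO 12 h replicate 2 (0.0412). KO and WT did not differ past the threshold at any time, and the difference of their means was 0.11 with a 95% interval of -0.03 to 0.25. Its exons share 468 bases with the antisense gene 1700034H15Rik, which had 0 to 6 counts per library. Slc30a5, an exporter that loads zinc into the early secretory pathway, passed in no comparison. It ran from 28.4 to 46.8 CPM with a median of 36.1 CPM in KO, and from 26.7 to 39.8 CPM with a median of 32.8 CPM in WT. In KO the libraries at 12 h, at 33.6, 32.2 and 29.3 CPM, lay below those at 0 h, at 44.6, 39.7 and 41.5 CPM, with a log2 change of -0.40 ± 0.14 (adjusted p = 0.0653). In WT that change was -0.16 ± 0.14 (adjusted p = 0.494).

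Among the importers, Slc39a1 was the most abundant and passed in no comparison, with 88.5 to 119 CPM and a median of 103 CPM in KO and 84.5 to 113 CPM and a median of 98.0 CPM in WT. Its SE was also the second smallest of the 8 genes, between 0.0926 and 0.0964 in the changes from 0 h and the differences of KO from WT. Slc39a14, which imports zinc, iron and manganese and is known for its induction by interleukin 6 in liver, also passed in no comparison. It ran from 23.5 to 38.3 CPM with a median of 30.6 CPM in KO and from 24.5 to 36.7 CPM with a median of 31.5 CPM in WT. At 12 h against 0 h its log2 change was -0.26 ± 0.14 in KO (adjusted p = 0.233) and -0.29 ± 0.14 in WT (adjusted p = 0.144).

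Slc39a10, an importer known for its role in survival of immune cells, had higher means at 6 and 9 h than at 0 or 12 h in both genotypes. In KO it had 29.5, 18.4 and 24.3 CPM at 0 h, 26.5, 25.4 and 20.1 CPM at 3 h, 31.2, 32.7 and 30.1 CPM at 6 h, 29.1, 31.5 and 30.6 CPM at 9 h, and 18.7, 18.5 and 22.0 CPM at 12 h. In WT it had 24.4, 20.98 and 22.0 CPM at 0 h, 23.4, 15.7 and 18.3 CPM at 3 h, 29.7, 25.8 and 29.2 CPM at 6 h, 31.2, 34.4 and 20.7 CPM at 9 h, and 22.7, 18.3 and 25.8 CPM at 12 h. At 6 h no library overlapped those at 0 h in either genotype, but the log2 changes of 0.39 ± 0.18 in KO and 0.33 ± 0.18 in WT did not pass (adjusted p = 0.244 and 0.381). From 9 to 12 h it fell by 0.63 ± 0.18 in KO (adjusted p = 0.0444), with no overlap of libraries. That call ended without any 1 of the 6 libraries compared, with adjusted p between 0.0521 and 0.144, and with DESeq2 (0.0641), with no count filter (0.0725) and when only the libraries compared were fitted (0.0636). In WT the step was -0.37 ± 0.17 (adjusted p = 0.187), and it passed without WT 9 h replicate 3 (log2 -0.57, adjusted p = 0.0347). KO and WT did not differ past the threshold for Slc39a10 at any time.

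**Figure D5:**
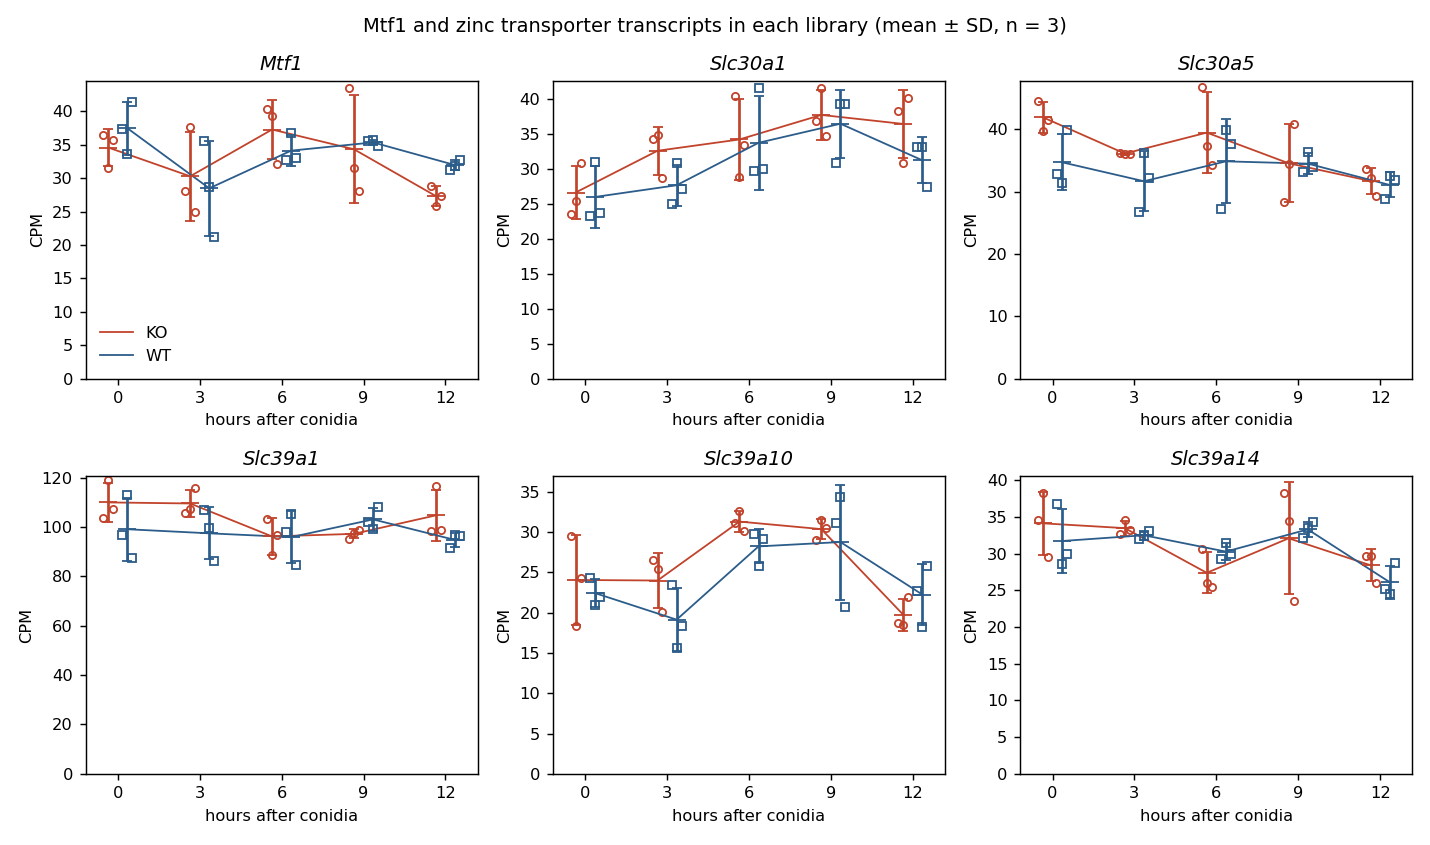
CPM of Mtf1 and the 5 zinc transporters in each library (KO circles, WT squares) against hours after conidia, with mean marks and SD bars (n = 3). The genotypes overlap at most times, and for Slc30a1 all KO symbols and 2 of the 3 WT symbols at 9 h are above those of their genotype at 0 h.

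Of 22 other genes for metallothioneins, SLC30 and SLC39 transporters and a zinc receptor, 12 passed the filter. Mt3, a metallothionein of the brain, was at 0 to 3.26 CPM, and Mt4, one of squamous epithelium, had no count in any of the 30 libraries. Slc39a8, an importer that NF-kappaB is known to turn on, did not pass the filter and reached 6.36 CPM at most. Against 0 h, 1 of the 12 was called at each of 6, 9 and 12 h in KO, Slc39a2, and 1, 2 and 1 were called in WT, Slc39a2 at each time and Slc39a4 at 9 h, all higher. The shares of all genes called at 6, 9 and 12 h were 5.91%, 10.9% and 14.7% in KO and 5.96%, 10.4% and 18.1% in WT. None of the 12 was called at 3 h. Slc39a2, a plasma membrane zinc importer, had means of 6.54 ± 3.64, 10.9 ± 4.72, 15.9 ± 3.72, 22.1 ± 1.94 and 27.5 ± 5.27 CPM at 0, 3, 6, 9 and 12 h in KO (SD, n = 3). In WT its means were 6.42 ± 2.26, 11.9 ± 4.44, 14.3 ± 0.232, 16.4 ± 1.75 and 18.4 ± 1.07 CPM. Its log2 change was 1.80 ± 0.31 at 9 h and 2.10 ± 0.31 at 12 h in KO (adjusted p = 0.000194 and 1.45e-05), and 1.35 ± 0.31 and 1.52 ± 0.31 in WT (adjusted p = 0.00431 and 0.000769). The calls at 6 h ended without 3 of the 6 libraries in KO (adjusted p up to 0.135) and 5 of the 6 in WT (up to 0.163). They also ended when only the libraries compared were fitted in KO (adjusted p = 0.122) and with no count filter in WT (0.0800). The Slc39a4 call at 9 h in WT (1.37 ± 0.34, adjusted p = 0.00785) was lost when WT 0 h replicate 3 (adjusted p = 0.0612) or WT 9 h replicate 1 (0.0510) was left out.

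Between genotypes, 4 of these 12 genes were called on the mean over times, 2 higher and 2 lower in KO, beside 24.9% of all genes. The exporters Slc30a4 and Slc30a9 were higher in KO by 0.20 ± 0.04 and 0.26 ± 0.06 (adjusted p = 0.00157 and 0.00102), and the Slc30a4 call ended with no count filter (0.0895). The importers Slc39a3 and Slc39a6 were lower in KO by a log2 change of -0.55 ± 0.10 and -0.17 ± 0.06 (adjusted p = 0.000271 and 0.0487). The Slc39a6 call ended in 18 of 30 fits that left out 1 library, with adjusted p up to 0.0858, and with DESeq2 (0.102) or its size factors (0.0559). Slc39a3 had a mean of 4.85 ± 1.75 CPM in KO and 11.2 ± 0.948 CPM in WT at 12 h (SD, n = 3), a log2 change of -1.15 (adjusted p = 0.00637) that did not pass without KO 12 h replicate 3 (adjusted p = 0.0590) or when only the libraries compared were fitted (0.140).

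The alarmins S100a8 and S100a9, whose proteins form the zinc-binding complex calprotectin, were both higher at 6 h than at 0 h, by 1.11 and 1.18 in KO and by 0.93 and 1.13 in WT on the log2 scale (adjusted p at most 4.86e-05). The S100a8 call in WT was lost when only the libraries compared were fitted (adjusted p = 0.0595). Over all times both were lower in KO, by a log2 change of -0.38 ± 0.06 and -0.77 ± 0.06 (adjusted p = 5.41e-05 and 2.45e-10). Both also stand in the list of neutrophil markers given above. Of 7 oxidative and metal stress genes, 2, 4, 4 and 3 were higher at 3, 6, 9 and 12 h than at 0 h in KO, and 2, 3, 6 and 3 in WT. All genes were called at 1.22%, 5.91%, 10.9% and 14.7% in KO and at 1.02%, 5.96%, 10.4% and 18.1% in WT. Leaving out 1 library ended the call of Slc7a11 at 3 h in KO in 5 of 6 fits. It ended Gclc at 6 h in KO and Nqo1 at 9 h in WT in 4 of 6 each, and Gclm at 9 h in WT in 1 of 6. Of 5 other alternatives, 2 ended that Slc7a11 call, 3 each those of Gclc and Nqo1, and 1 that of Gclm. In WT, 1 of 5 also ended Slc7a11 at 3 h and Txnrd1 at 12 h. Nqo1, a quinone reductase gene, was the 1 stress gene lower at any of these times, at 12 h in KO (log2 change -1.39, adjusted p = 1.18e-05). On the mean over times, beside 24.9% of all genes, Slc7a11 was higher in KO by 0.44 (adjusted p = 1.57e-17) and Txnrd1 by 0.21 (2.99e-09). Nqo1 was higher by 0.46 (0.000274) and Gclc by 0.20 (0.0125), and the rest of the 7 were not called. The Gclc call ended in 1 of 4 alternatives other than leaving out a library. Hmox1, the heme oxygenase gene that metals and oxidants are known to raise, had means of 407, 683, 879, 1232 and 920 CPM at 0, 3, 6, 9 and 12 h in KO and 457, 748, 958, 1169 and 641 CPM in WT. From 9 to 12 h Hmox1 fell by 0.42 ± 0.06 in KO (adjusted p = 2.43e-05) and by 0.87 ± 0.06 in WT (adjusted p = 4.46e-11), while Mt1 and Mt2 rose. At 12 h Hmox1 was higher in KO than in WT by 0.52 (adjusted p = 5.36e-06). It also passed the F test of genotype by time (adjusted p = 5.99e-05). Of 8 copper genes that passed the filter, 2 were called on the mean over times, beside 24.9% of all genes, both higher in KO, Cox17 by 0.56 ± 0.09 (adjusted p = 4.9e-05) and Commd1 by 0.23 (adjusted p = 0.0209), a call that ended with no count filter (0.168).

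The profile most like that of each gene was ranked by Pearson correlation of log2 CPM over all 30 libraries, which share genotypes, times and scaling. Nearest to Mt1 were Mt2 (r = 0.889), the phosphate transporter gene Slc20a1 (0.868) and the transcription termination factor gene Pcf11 (0.868). Nearest to Mt2 were Olr1 (0.939), which encodes a receptor for oxidised lipoprotein, Btg1 (0.935), an antiproliferative gene, and H2-M2 (0.916), a non-classical class I gene. Once the group means were subtracted, the correlation of Mt1 with Mt2 was 0.0801, that of Mt1 with Slc20a1 0.237 and that of Mt1 with Pcf11 0.261. Those of Mt2 with Olr1, Btg1 and H2-M2 were 0.174, -0.193 and 0.254. For the other 6 genes the highest correlations over all libraries were weaker, from 0.626 for Slc39a1 with Ranbp6 to 0.794 for Slc39a10 with Taldo1. With group means subtracted, the correlations of these nearest pairs ran from 0.536 for Slc39a10 with Taldo1 to 0.667 for Slc30a5 with Usp14. On that measure they were higher than those given for Mt1 and Mt2. Mt1 and Mt2 had correlations of 0.358 and 0.366 with Slc30a1 and of -0.312 and -0.308 with Mtf1.

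The authors' deposited tables of comparisons, which list their significant genes, held Mt1 and Mt2 and none of the other 6 genes. In the authors' deposited table of KO at 12 h against 0 h the log2 fold changes were 0.849 for Mt1 and 1.15 for Mt2, and in that of WT at 12 h Mt2 was listed with 1.30. In the authors' deposited table of KO at 9 h against 0 h Mt1 was listed with 0.506. Their genotype tables are given as WT over KO, so that a negative value means higher in KO. In the authors' deposited table Mt2 had -1.05 at 3 h and -1.23 at 9 h, and Mt1 had -0.69 at 9 h. The other calls given here against 0 h and between genotypes at one time are not in those lists: Mt1 in WT at 12 h, Mt2 in KO at 9 h, Slc30a1 at 9 h in both genotypes, and between genotypes Mt1 at 3 and 12 h and Mt2 at 0, 6 and 12 h.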

How the data were processed

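The deposited whole-number counts per Ensembl gene were taken as the authors' raw counts from their values. The submitters' processing notes name Trimmomatic 0.35, HISAT2, StringTie and DESeq2 with build GRCm38, but not how StringTie's output became counts nor the strand setting. Such counts can be rounded estimates. Per the labels' protocols, the libraries were strand-specific and made from total RNA with RIN of at least 8.0. The 13 deposited tables of comparisons give the authors' log2 fold changes, and the authors' p-values in them are under 0.05 after adjustment, per the file headers and values; 78 columns of per-sample normalized values in them were not used. GENCODE M21 on GRCm38 named 54495 of the 54532 Ensembl IDs, and promoter sequence is RefSeq's on GRCm38.p6.

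Of 46958 genes with a count, 12393 passed filterByExpr (minimum count 10), with 98.7% of counts. Total counts were 1722384 to 3509429 per library (median 2492886); genes at a few CPM rest on few counts, and their changes have wide errors. Libraries were scaled by TMM and fitted over all 30 libraries and 10 groups by the robust quasi-likelihood method of edgeR 4.0.16 (R 4.3.3), leaving 20 residual degrees of freedom. Two-sided p-values received the Benjamini-Hochberg adjustment across the genes tested, and 0.05 was the threshold. CPM are counts over scaled totals, log2 CPM uses a prior count of 2, and per kilobase values use merged exon lengths. The SE of a log2 change is its absolute value over the square root of the F statistic of its test. Intervals of 1.96 SE can therefore be narrower than the p-value implies. No pair of libraries within a group agreed within sampling noise (0 of 30). Alternatives were DESeq2's size factors, no count filter, DESeq2 1.42.0, a replicate block, only the libraries compared, and leaving out each library. Named genes were the 8 genes in each comparison, Nlrx1, listed genes that passed or serve as examples, and the 3 genes most correlated with each of the 8. The genes, the lists and the tests were chosen with earlier results of these data known.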

Additional observations from a re-analysis of the deposited data

Results flagged for a closer look

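The change of Mt1 from 0 h differed between KO and WT by the test of the difference itself. The change was larger in KO than in WT by 0.71 on the log2 scale at 9 h and by 0.51 at 12 h, and the F test of genotype by time gave an adjusted p of 0.00216 (edgeR). The call at 12 h was lost in 4 of 17 alternatives, and that at 9 h in 0 of 17. At 9 h all 3 KO libraries were above every KO library at 0 h, while 2 of 3 WT libraries were below the lowest at 0 h. The summed neutrophil markers at 9 h, at 288 to 316 CPM in KO and 499 to 649 CPM in WT, also differ, and their part was not tested.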

How the results depend on the processing

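No direction of a called gene reversed in any alternative. Over the 8 genes, 2483 of 2530 combinations of comparison and alternative kept their side of the threshold, 42 lost a call and 5 gained one. Most of these combinations belong to comparisons that were not called to begin with and had no call to lose. Their share therefore does not measure how firm the calls are. The 5 member calls against 0 h in KO became 3 with no count filter and 3 with only the libraries compared, and ran from 3 to 6 when 1 library was left out. In WT the 3 calls became 2 with no count filter, with DESeq2 and with only the libraries compared, and ran from 2 to 4. The 5 calls of 12 h against 9 h became 3 with no count filter and ran from 4 to 6. The 8 calls of KO against WT at each time became 6 with no count filter and 6 with only the libraries compared, and ran from 7 to 8 when 1 library was left out, the 2 calls on the mean stayed at 2, and the interaction stayed at 1. Calls of other zinc genes ran from 2 to 3 in KO and from 3 to 5 in WT. The cause of these shifts was not tested, and only some of these alternatives use fewer libraries. With no count filter, the genes called at 12 h against 0 h were 1187 in KO and 1486 in WT, against 1823 and 2245 with it, and the genes called for KO against WT at 12 h were 109 against 236.

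Same-numbered libraries showed little shared deviation from their group means (45 pairs, median r 0.0138, none over 0.1). Counting noise in low genes lowers such correlations, so they cannot show whether equal numbers share a mouse or culture. The labels leave this open, and the fits treated the libraries as unpaired. With a replicate block the member calls were 5 in KO, 3 in WT, 5 for 12 h against 9 h, 8 for KO against WT, 2 on the mean and 1 for the interaction, as without it. Another scaling moved the median log2 change of all genes by less than 0.02.

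Small changes of the low genes were not resolved at this depth: in the changes from 0 h and the differences of KO from WT at a time, the SE ran from 0.0713 for Mt1 to 0.192 for Slc39a10. The 8 genes are measured in bulk cultures with no unchallenged later time.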

Other observations

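Mt1 and Mt2 lie in a cluster on chromosome 8, and 13 genes within 500000 bases of them passed the filter. On the mean over times 3 of these 13 were called between genotypes, beside 24.9% of all genes: Cpne2 lower in KO (log2 change -0.11 ± 0.04, adjusted p = 0.0408), and Rspry1 (0.30 ± 0.07, adjusted p = 0.00165) and Nlrc5 (0.34 ± 0.08, adjusted p = 0.00326) higher in KO. These were named after their values were seen.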
